A study of Mus musculus with 6 samples.

Results

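The SLC25 family is the largest family of solute carriers in mammals, and its members sit almost all in the inner mitochondrial membrane. In the deposited count table, 47 protein-coding genes had a symbol that starts with Slc25a, out of 29626 genes in all and 16455 protein-coding ones. These 47 are the members meant below, and carrier-fold genes with other symbols, such as Ucp2, are not counted among them. Transcripts were measured by bulk RNA-seq in thymocytes that carry both CD4 and CD8 (double-positive), sorted by flow cytometry from mice of 8 weeks without any stimulation in culture. The KANSL1-deficient group was 3 mice with Kansl1 fl/fl and CD4-Cre, and the control group was 3 Kansl1 fl/fl littermates without Cre, labelled WT. CD4-Cre is a transgene driven by regulatory sequence of the Cd4 gene, active from about the double-positive stage on. Both groups carry the floxed allele, and KANSL1-deficient mice alone carry Cre, so an effect of Cre and one of Kansl1 loss cannot be told apart. KANSL1 belongs to the NSL complex, which also holds the histone acetyltransferase KAT8. The question was which transcripts of the family differ between the genotypes at this stage.

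A mitochondrial carrier is built of repeats of a pair of membrane-spanning helices and exchanges one small molecule for another across the inner membrane. Together the carriers bring in ADP, phosphate, fuels, amino acids and cofactors and let out ATP, citrate and other products that are made in the matrix. Carriers are encoded in the nucleus, made in the cytosol and inserted by a dedicated route, in which the TOM complex hands them through small TIM chaperones to the TIM22 complex. Double-positive thymocytes pass through a proliferating stage and then rest while they rearrange the T cell receptor alpha gene.

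Library totals lay between 19361968 and 22459830 counts. Kansl1 itself was read at 146, 168 and 188 CPM (reads of a gene relative to the library's scaled total) in KANSL1-deficient libraries, against 214, 189 and 230 CPM in control libraries (log2 fold change -0.33 ± 0.14, SE; edgeR adjusted p = 0.171). These are whole-gene counts that include exons Cre may leave in place, so they check the labels weakly. Summed over the 11 listed markers of double-positive thymocytes, the level was 17092 to 18857 CPM in KANSL1-deficient libraries and 14389 to 14995 CPM in control libraries, and none of them was under 1 CPM in every library. The 7 erythroid markers summed to 3.21 to 5.21 CPM in KANSL1-deficient libraries and 3.57 to 8.22 CPM in control libraries. The 9 markers of macrophages and dendritic cells in the table, of 10 listed, summed to 8.96 to 16.3 CPM in KANSL1-deficient libraries and 10.7 to 16.5 CPM in control libraries. Cycling-cell markers, 8 genes from Mki67 to Ccne2, summed to 830 to 935 CPM in KANSL1-deficient libraries and to 218 to 371 CPM in control libraries, and all 8 rose. Markers of mature single-positive cells also summed to more in KANSL1-deficient libraries (422 to 585 CPM) than in control libraries (268 to 324 CPM), with Il7r and Zbtb7b under 1 CPM in every library. They did not move together: of the 5 tested, 3 had a positive and 2 a negative log2 fold change. At an edgeR unadjusted p under 0.05, 2 were higher and 1 was lower. Double-negative markers summed to 123 to 142 CPM in KANSL1-deficient libraries and 82.4 to 107 CPM in control libraries, with 4 of 5 positive in log2 fold change and 1 negative. The part of these marker shifts in the carrier results was not tested.

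In KANSL1-deficient cells 3 members of the family fell, Slc25a16, Slc25a26 and Slc25a39, whose proteins are linked to coenzyme A, S-adenosylmethionine and glutathione. They were 3 of the 39 members that passed the filter on low counts (7.69%), and over all 15353 tested genes 447 (2.91%) were lower by the same rule. No member rose, against 591 (3.85%) of all tested genes (edgeR quasi-likelihood test, Benjamini-Hochberg adjustment over all tested genes at 0.05). Ucp2, whose symbol leaves it out of the 47, was called higher and is given below with its limits. At an unadjusted p under 0.05, 8 members were lower (20.5%) and 2 were higher (5.13%), against 11.0% lower and 11.7% higher of all tested genes. Among the 11440 tested protein-coding genes, 3.69% were called lower and 4.74% higher, and 13.3% and 13.9% were so at the unadjusted p. In bulk RNA, fewer cells of a type and less RNA per cell cannot be told apart. The carriers that hold most of the members' summed level per gene length, those for ADP/ATP, phosphate and oxoglutarate, showed no change that passed the test. The median log2 fold change over the 39 tested members was -0.15, against -0.02 over all tested genes.

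Promoter windows of Slc25a16, Slc25a39 and Slc25a29 are shown first: Slc25a16 and Slc25a39 passed the test, and Slc25a29 had the next largest negative log2 fold change of the family after Slc25a16 and Slc25a26. They are RefSeq windows of the GRCm38.p6 build, from 250 bases before to 50 bases after the annotated start, written 5′ to 3′ on the gene's strand. Slc25a16 lies at chr10:62920383-62920682 on the plus strand, Slc25a39 at chr11:102407468-102407767 on the minus strand, and Slc25a29 at chr12:108835827-108836126 on the minus strand. Capitals mark CCAAT, the core of the NF-Y motif, on either strand.
Slc25a16: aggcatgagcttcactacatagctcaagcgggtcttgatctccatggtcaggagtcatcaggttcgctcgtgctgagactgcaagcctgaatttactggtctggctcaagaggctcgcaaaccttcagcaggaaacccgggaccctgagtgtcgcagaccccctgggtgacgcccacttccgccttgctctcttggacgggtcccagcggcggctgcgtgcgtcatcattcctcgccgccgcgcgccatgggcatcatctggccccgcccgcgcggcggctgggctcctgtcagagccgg
Slc25a39: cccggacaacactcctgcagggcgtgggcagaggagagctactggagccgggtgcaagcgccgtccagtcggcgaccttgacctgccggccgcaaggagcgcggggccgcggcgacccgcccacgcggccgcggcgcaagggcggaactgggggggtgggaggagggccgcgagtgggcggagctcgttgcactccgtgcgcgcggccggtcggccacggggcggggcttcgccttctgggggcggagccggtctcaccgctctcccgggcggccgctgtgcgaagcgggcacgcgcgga
Slc25a29: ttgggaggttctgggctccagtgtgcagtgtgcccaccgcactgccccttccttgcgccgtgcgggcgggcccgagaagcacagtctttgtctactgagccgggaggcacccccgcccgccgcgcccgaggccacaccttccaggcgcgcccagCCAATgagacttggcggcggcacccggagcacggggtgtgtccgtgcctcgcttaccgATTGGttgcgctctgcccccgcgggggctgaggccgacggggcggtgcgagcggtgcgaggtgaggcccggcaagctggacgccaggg
The table held windows for 36 of the 47 members, with 46 windows usable here, and none for Slc25a26. The letters searched on both strands were GCATGCGC (8 bases of the NRF1 palindrome), CACGTG (E-box), CCGGAAGT (ETS), CCAAT (NF-Y) and TTTCGCGC (E2F). Matches did not overlap in the windows shown. The Slc25a16 and Slc25a39 windows held none of them in these letters, and the Slc25a29 window held CCAAT once on each strand. CCAAT was in 47.8% of the member windows and 37.4% of all 32851 windows, CACGTG in 17.4% and 7.15%, GCATGCGC in 4.35% and 2.71%, CCGGAAGT in 2.17% (Slc25a20) and 3.89%, and TTTCGCGC in none of the member windows and 0.323% of all windows. The median GC content was 59.4% in member windows and 52.7% in all windows, and it was 63.7% for Slc25a16 and 77.3% for Slc25a39. These matches describe letters and were set against no test.

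Levels of different members can be compared only per length, so the deposited FPKM were used for that, averaged over the 6 libraries. Slc25a5, the ADP/ATP carrier of dividing cells, was first with a mean of 185 FPKM, 3.00 times the next member. It was followed by Slc25a11, the oxoglutarate-malate carrier (61.6 FPKM), Slc25a3, which brings in phosphate for ATP synthesis (50.9 FPKM), and Slc25a4, the ADP/ATP carrier best known from heart and muscle (43.2 FPKM). These 4 genes held 59.2% to 60.6% of the 47 members' summed FPKM in KANSL1-deficient libraries and 53.5% to 59.2% in control libraries. Next came Slc25a17, a peroxisomal carrier of coenzyme A and nucleotides (28.4 FPKM), Slc25a36, a pyrimidine nucleotide carrier (22.9 FPKM), Slc25a51, which imports NAD (16.3 FPKM), and Slc25a44, a carrier of branched-chain amino acids (15.7 FPKM). Slc25a39 (15.1 FPKM), Slc25a46, an outer membrane protein that affects mitochondrial shape (15.02 FPKM) and Slc25a45 (11.7 FPKM) followed. In that order Slc25a5 stood apart in every library, whereas Slc25a51, Slc25a44, Slc25a39 and Slc25a46 overlapped one another. Ucp2, outside the 47 members, had a mean of 107 FPKM. The order rests on a single length per gene, which the FPKM imply to be 1646 bases for Slc25a5 and 5550 bases for Slc25a3. In CPM these genes were close, with means of 305 and 284 over the 6 libraries. Whether such lengths match the transcripts present was not tested.

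**Figure D1:**
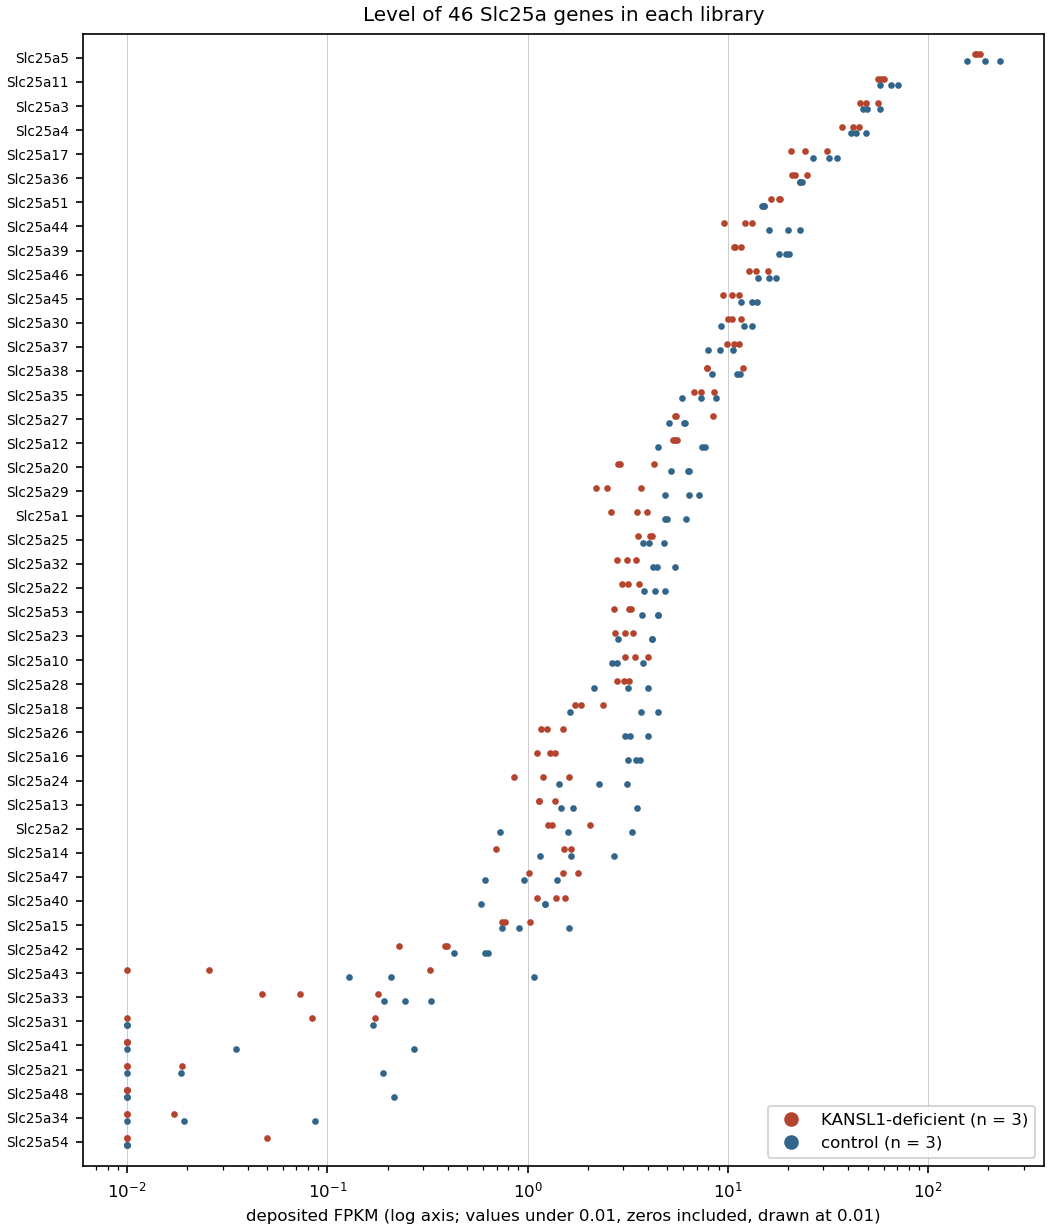
Deposited FPKM of 46 of the 47 Slc25a genes on a log axis, 1 point per library, with 3 KANSL1-deficient libraries above 3 control libraries for each gene and genes in order of their mean. Slc25a5 leads with a mean of 185 FPKM, and the last 8 genes are those that did not pass the filter on low counts.

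Of the 47 members, 37 averaged at least 1 FPKM and 10 averaged less. The 8 members that did not pass the filter on low counts were Slc25a21, Slc25a31, Slc25a33, Slc25a34, Slc25a41, Slc25a43, Slc25a48 and Slc25a54, and no member was at 0 in every library. Slc25a33, which like Slc25a36 moves pyrimidine nucleotides, had 3, 2 and 7 counts in KANSL1-deficient libraries and 12, 8 and 10 in control libraries. Slc25a43 had 1, 0 and 12 counts in KANSL1-deficient libraries and 37, 5 and 8 in control libraries. Both genes are near the floor at this depth. Without the filter on low counts, edgeR gave Slc25a33 an adjusted p of 0.681 and Slc25a43 one of 0.455, and 0 of the 8 low members had an unadjusted p under 0.05 with edgeR or DESeq2. Slc25a31, the germ cell form of the ADP/ATP carrier, had 8, 4 and 0 counts in KANSL1-deficient libraries and 7, 0 and 0 in control libraries.

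The nucleotide and phosphate carriers supply the ATP synthase and return its product to the cytosol. Slc25a5 stood at 323, 300 and 297 CPM in KANSL1-deficient libraries and at 243, 308 and 358 CPM in control libraries. Slc25a4 stood at 114, 92.9 and 103 CPM in KANSL1-deficient libraries and at 91.1, 112 and 97.3 CPM in control libraries. Slc25a3 stood at 338, 287 and 263 CPM in KANSL1-deficient libraries and at 245, 267 and 302 CPM in control libraries. The genotypes overlapped for all 3 genes. Their log2 fold changes were 0.02 for Slc25a5 (95% confidence interval -0.30 to 0.33), 0.04 for Slc25a4 (-0.26 to 0.35) and 0.12 for Slc25a3 (-0.17 to 0.42), and with library totals as the scale they were -0.13, -0.10 and -0.03, none past the test. Slc25a36 had a log2 fold change of 0.11 (95% confidence interval -0.16 to 0.38; -0.04 with library totals). ADP/ATP carrier genes are close in sequence and have processed copies in the genome, so reads can be shared among them. These intervals leave room for changes of up to about 0.4 on the log2 scale. Of the 7 tested members with such cargo, 0 passed the test and 0 had an unadjusted p under 0.05, with a median log2 fold change of 0.04. Slc25a24, a calcium-regulated carrier of ATP-Mg and phosphate, had the lowest value of the 7 (-0.76 ± 0.37, SE; edgeR adjusted p = 0.255).

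Carriers of cofactors held all the members that passed the test, although the division of the family by cargo was made after the values were seen. Slc25a16 (chromosome 10, 62756412 to 62782277 in GRCm39) encodes a carrier linked to coenzyme A through its yeast relative. It stood at 5.76, 6.98 and 6.41 CPM in KANSL1-deficient libraries and at 14.3, 16.2 and 16.7 CPM in control libraries. Each KANSL1-deficient library was below every control library, and the log2 fold change was -1.30 ± 0.24 (SE; edgeR quasi-likelihood test, adjusted p = 0.00995). Without KANSL1-deficient replicate 1 the adjusted p was 0.0574.

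Slc25a26 (chromosome 6, 94477312 to 94581653 in GRCm39) encodes the carrier that brings S-adenosylmethionine, the methyl donor, into the matrix. It stood at 6.44, 5.94 and 7.46 CPM in KANSL1-deficient libraries and at 13.8, 18.5 and 14.9 CPM in control libraries. The genotypes did not overlap, and the log2 fold change was -1.25 ± 0.25 (SE; edgeR quasi-likelihood test, adjusted p = 0.0144). The call was lost without KANSL1-deficient replicate 1 or 2 or control replicate 2, with adjusted p between 0.0191 and 0.0756 over the 6 fits that leave out a library. Its annotated span overlaps Lrig1 on the opposite strand by 144 bases, and no source used here says if strand was taken into account in counting.

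Slc25a39 (chromosome 11, 102293811 to 102298772 in GRCm39) encodes the importer of glutathione, the main thiol antioxidant of the matrix. It stood at 32.1, 33.9 and 30.6 CPM in KANSL1-deficient libraries and at 46.4, 53.6 and 50.8 CPM in control libraries. The genotypes again did not overlap, and the log2 fold change was -0.64 ± 0.16 (SE; edgeR quasi-likelihood test, adjusted p = 0.0326). With 1 library left out, the call held only without control replicate 1, and the adjusted p lay between 0.0327 and 0.118.

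Of the other cofactor carriers, Slc25a32, the folate and FAD carrier, stood at 20.4, 17.9 and 21.9 CPM in KANSL1-deficient libraries and at 24.2, 25.9 and 31.4 CPM in control libraries (log2 fold change -0.44 ± 0.19, SE; edgeR adjusted p = 0.207). It did not pass the test, and the KANSL1-deficient libraries lay below all control libraries. Slc25a51, the NAD importer, lay on the other side, at 107, 96.0 and 103 CPM in KANSL1-deficient libraries and at 78.1, 79.2 and 79.4 CPM in control libraries (0.37 ± 0.13, SE; edgeR adjusted p = 0.0992). It did not pass the test either. Over the 10 members grouped as cofactor carriers, all tested, 3 were called lower and the median log2 fold change was -0.46. At an unadjusted p under 0.05, 5 were on the lower side and 1 on the higher side. The group includes Slc25a47, for which no cofactor is named here. Over all tested genes the shares were 2.91% called lower, 11.0% lower and 11.7% higher at that unadjusted p, with a median of -0.02. The 10 members had a median level of 17.4 CPM, and all tested genes below 24.2 CPM had a median log2 fold change of -0.13.

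**Figure D2:**
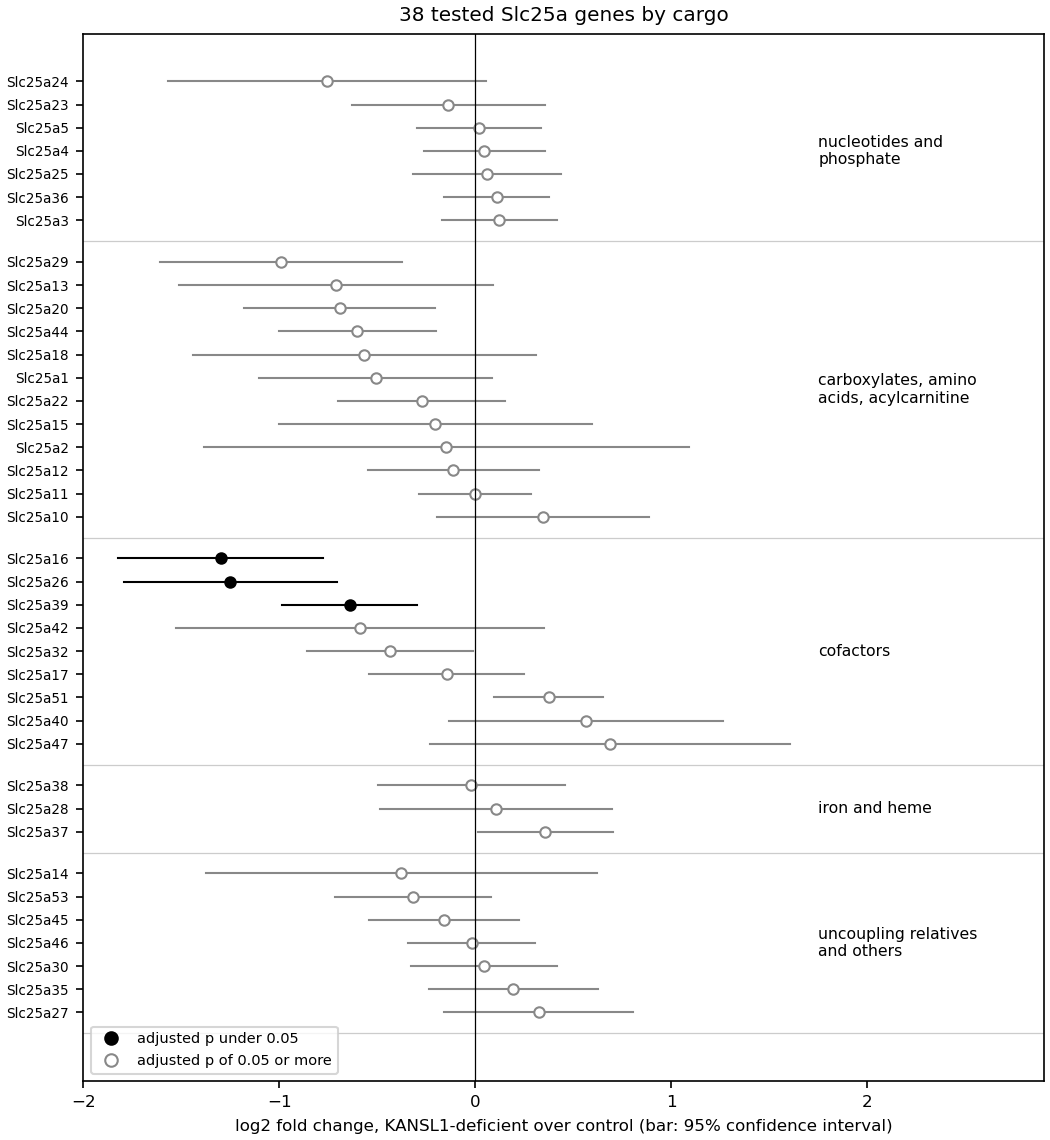
Log2 fold change of KANSL1-deficient over control with its 95% confidence interval for 38 of the 39 tested Slc25a genes, grouped by cargo. Filled points passed the adjusted threshold and are Slc25a16, Slc25a26 and Slc25a39, all among the cofactor carriers, whereas the points for nucleotide and phosphate carriers sit near 0 apart from Slc25a24.

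Carriers of carboxylates, amino acids and acylcarnitine feed the citric acid cycle and link it to the cytosol. None of the 12 tested passed the threshold, 3 had an unadjusted p under 0.05 on the lower side, and 11 had a negative log2 fold change (91.7%), with a median of -0.39. Of all tested genes, 11.0% were lower at that unadjusted p and 51.8% had a negative log2 fold change. These 12 carriers had a median level of 11.4 CPM. Of all tested genes below 24.2 CPM, 10.4% were lower at that unadjusted p and 58.2% were negative, with a median of -0.13. Slc25a29, a carrier of basic amino acids, stood at 6.99, 10.1 and 5.91 CPM in KANSL1-deficient libraries and at 11.9, 18.1 and 15.8 CPM in control libraries (log2 fold change -0.99 ± 0.28, SE; edgeR adjusted p = 0.0562). Slc25a44, which takes branched-chain amino acids into mitochondria, stood at 50.9, 46.0 and 35.4 CPM in KANSL1-deficient libraries and at 77.3, 55.6 and 68.0 CPM in control libraries (-0.60 ± 0.18, SE; edgeR adjusted p = 0.0684). Slc25a20, the carnitine-acylcarnitine carrier of fatty acid oxidation, stood at 15.1, 22.0 and 14.2 CPM in KANSL1-deficient libraries and at 23.6, 30.1 and 29.2 CPM in control libraries (-0.69 ± 0.22, SE; edgeR adjusted p = 0.0835). In each of these genes all KANSL1-deficient libraries were below all control libraries. Slc25a11 stood at 129, 130 and 133 CPM in KANSL1-deficient libraries and at 115, 146 and 132 CPM in control libraries, with a 95% confidence interval of its log2 fold change from -0.29 to 0.28, and its span overlaps Rnf167 on the opposite strand by 245 bases. The aspartate-glutamate carriers of the malate-aspartate shuttle, Slc25a12 (-0.11 ± 0.20, SE) and Slc25a13 (-0.71 ± 0.37, SE), did not pass the test.

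Slc25a29 and Slc25a47, a carrier best known from liver, are neighbours on opposite strands of chromosome 12. Their annotated spans in GRCm39 start at facing ends, with 162 bases between them. Their RefSeq promoter windows in GRCm38.p6 lie 14752 bases apart, so the annotations differ in how far apart the starts lie. A shared start region was not tested. Slc25a47 stood at 5.71, 3.21 and 4.61 CPM in KANSL1-deficient libraries and at 3.92, 1.76 and 2.73 CPM in control libraries, where the genotypes overlapped. Its log2 fold change was 0.69 ± 0.42 (SE; edgeR adjusted p = 0.377). The fitted values of these neighbours thus had opposite signs, and the difference between them was not tested.

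**Figure D3:**
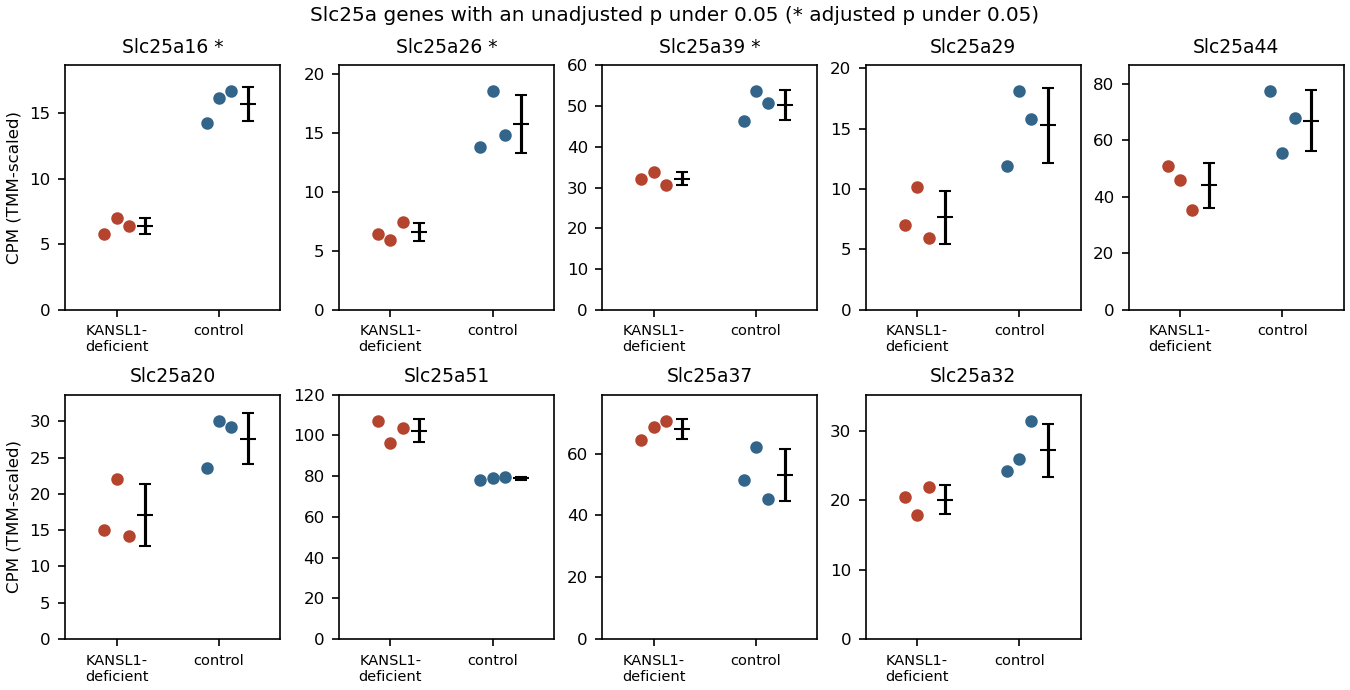
CPM (TMM-scaled) of 9 of the 10 Slc25a genes with an unadjusted p under 0.05, 1 point per library with the mean and SD (n = 3), KANSL1-deficient left of control. The genotypes do not overlap in any panel, and Slc25a51 and Slc25a37 are the panels in which the KANSL1-deficient libraries are the higher ones.

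The iron carriers supply heme and iron-sulfur cluster synthesis. Slc25a37 (mitoferrin 1) stood at 64.2, 68.7 and 70.6 CPM in KANSL1-deficient libraries and at 51.5, 62.1 and 45.3 CPM in control libraries, and the log2 fold change was 0.36 ± 0.16 (SE; edgeR adjusted p = 0.204). Slc25a28 (mitoferrin 2) had a log2 fold change of 0.11 ± 0.27 (SE) and Slc25a38, which brings in glycine for heme, one of -0.02 ± 0.22 (SE). No iron or heme carrier passed the test. Relatives of the uncoupling proteins and members without a cargo assigned here gave 0 calls among 7 tested genes, with a median log2 fold change of -0.02. Slc25a46 stood at 80.6, 90.9 and 71.4 CPM in KANSL1-deficient libraries and at 72.2, 84.1 and 90.0 CPM in control libraries.

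The genotypes did not overlap in CPM for 12 of the 39 tested members (30.8%), as for 28.5% of all tested genes. Of the tested protein-coding genes 32.3% did not overlap, 16% on the lower side and 16.3% on the higher side. On the lower side there were 10 such members (25.6%), against 14.0% of all tested genes, and on the higher side 2 (5.13%), against 14.6%. Besides the genes with an unadjusted p under 0.05, these were Slc25a1, the citrate carrier, and Slc25a53, whose span overlaps Zcchc18 on the opposite strand by 5318 bases. Fold change went with abundance: the 20 members at or above the members' median of 24.2 CPM had a median log2 fold change of 0.01, and the 19 below it one of -0.44. All tested genes at or above that CPM had a median of 0.07 and those below it one of -0.13, so the same order was present outside the family. Across genes, Spearman's rho between log2 fold change and mean log2 CPM was 0.37 over 39 members and 0.18 over 15353 genes, which share the 6 libraries and are not independent. With each library's trend on abundance removed, the same 3 members passed the test and the members' median log2 fold change was -0.10.

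**Figure D4:**
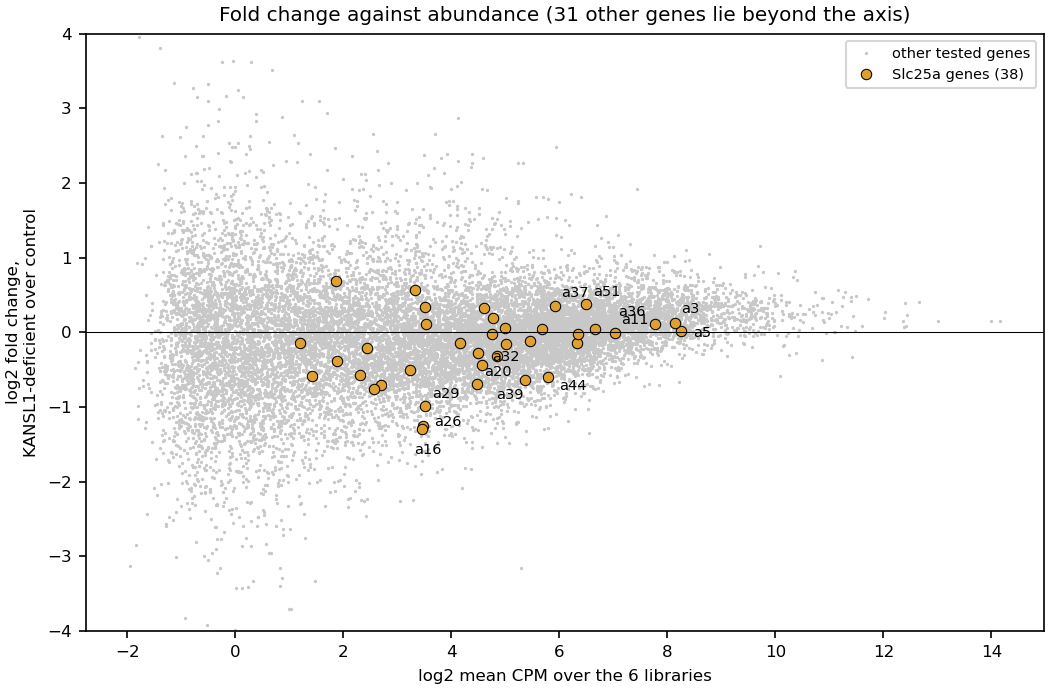
Log2 fold change of KANSL1-deficient over control against log2 mean CPM for all tested genes (grey) and 38 of the 39 tested Slc25a genes (orange), with 31 other genes beyond the vertical axis. Slc25a16 and Slc25a26 are the lowest carriers, and the abundant carriers on the right, such as Slc25a5 and Slc25a3, sit close to 0.

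The summed level of the family depended on the scale. The 47 members summed to 1942 ± 102 CPM in KANSL1-deficient libraries and 1980 ± 129 CPM in control libraries (SD, n = 3 each; exact two-sided permutation p = 0.8). Summed FPKM, which are scaled by library totals, were 545 ± 15.1 in KANSL1-deficient libraries and 624 ± 51.2 in control libraries (SD, n = 3 each; exact two-sided permutation p = 0.1, the smallest that 3 against 3 libraries allow). Relative to the control mean, the median over tested members was -0.08, -0.10 and -0.14 on the log2 CPM scale in KANSL1-deficient libraries and -0.13, 0.07 and 0.03 in control libraries, so control replicate 1 lay among the KANSL1-deficient libraries. The choice of scale also set the balance of calls over all genes. With TMM scaling 56.9% of the called genes were higher, and with library totals 27.7% were, with the median of all genes at -0.17 in place of -0.02. With library totals, 7 members were called lower and 0 higher, against 6.25% lower and 2.39% higher of all tested genes, with Slc25a20, Slc25a29 and Slc25a44 among the added ones.

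Other tests of the same libraries called more members. DESeq2 called 7 members lower and 1 higher, Slc25a51, against 6.67% lower and 7.56% higher of all genes with an adjusted p. In the authors' deposited table, 7 members had an adjusted p under 0.05 on the lower side and 1 on the higher side, again Slc25a51, against 6.99% and 7.92% of the genes there. The submitters name DESeq2, and for Slc25a48 that table gives the same log2 fold change (-4.64) as the DESeq2 fit here. These counts are therefore not separate support for each other. That table marked 2 members as significant, Slc25a16 and Slc25a26. The mark did not rest on the adjusted p alone, since Slc25a39 went unmarked at an adjusted p of 0.00250 there.

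Members with the same or related cargo were compared as shares of their summed FPKM. In 8 pairs the exact two-sided permutation test on the log2 ratio of the 2 genes could not go below 0.1, so no pair could pass. Slc25a39 held 88.6%, 88.3% and 90.7% of the glutathione pair with Slc25a40 in KANSL1-deficient libraries and 96.8%, 94.3% and 94.1% in control libraries. The genotypes did not overlap, and the log2 ratio differed by -1.28 (KANSL1-deficient minus control; exact permutation p = 0.1, 0.4 after adjustment over the pairs). Slc25a40 itself stood at 12.5, 13.7 and 9.61 CPM in KANSL1-deficient libraries and 4.59, 9.90 and 9.72 CPM in control libraries, an overlap, and its log2 fold change was 0.57 ± 0.32 (SE; edgeR adjusted p = 0.333).

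Slc25a16 held 79.2% ± 3.36 of the coenzyme A pair with Slc25a42 in KANSL1-deficient libraries and 86.1% ± 1.79 in control libraries (SD, n = 3 each; log2 ratio difference -0.70, exact permutation p = 0.1, adjusted 0.4). The ADP/ATP pair showed almost the same split in both genotypes, since Slc25a5 held 81.0% ± 1.09 of its sum with Slc25a4 in KANSL1-deficient libraries and 81.0% ± 2.65 in control libraries (SD, n = 3 each). The mitoferrin pair had Slc25a28 at 22.0% ± 0.0611 in KANSL1-deficient libraries and 24.8% ± 3.06 in control libraries (SD, n = 3 each; exact permutation p = 0.4). The remaining pairs, Slc25a13 with Slc25a12, Slc25a24 with Slc25a25, Slc25a22 with Slc25a18 and Slc25a51 with Slc25a47, overlapped between the genotypes, with exact permutation p between 0.2 and 0.8. Slc25a36 and Slc25a33 were not compared because Slc25a33 was too low.

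**Figure D5:**
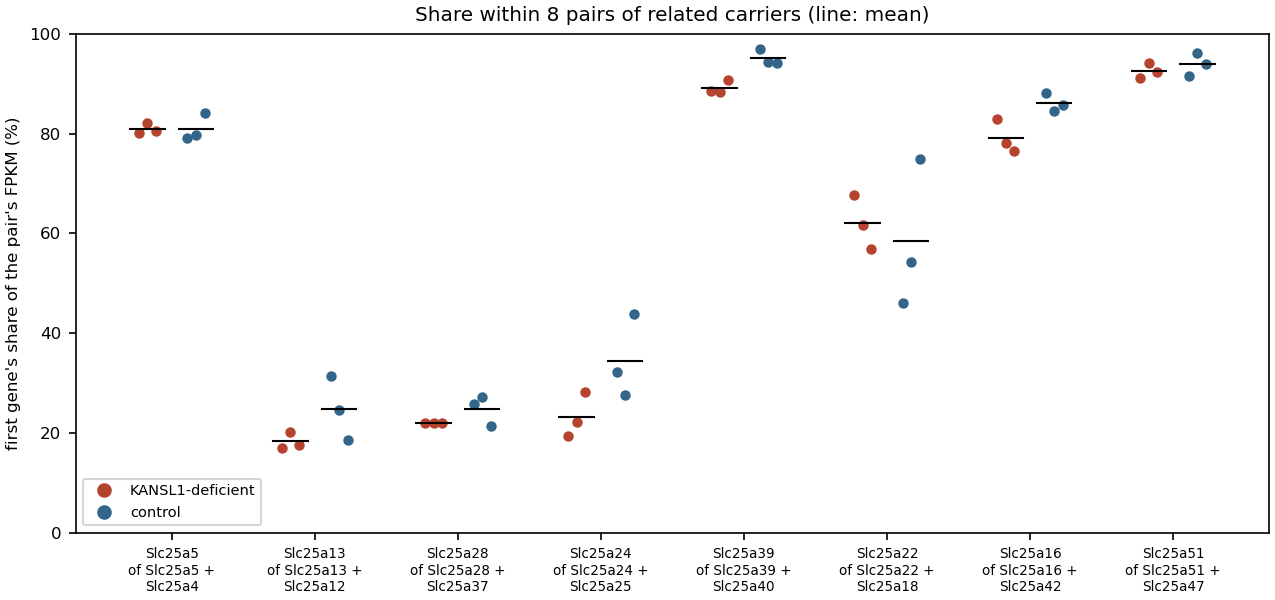
Share of the first gene in the summed FPKM of 8 pairs of related carriers, 1 point per library with the mean as a line, KANSL1-deficient left of control. The shares of Slc25a39 and of Slc25a16 do not overlap between the genotypes, and the share of Slc25a5 averages 81.0% in both.

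Genes of mitochondrial protein import, those of the route that inserts carriers and of the TIM23 complex, were read from a list of 25, of which 21 were tested. Of these, 3 fell (14.3%, against 2.91% of all tested genes), 0 rose, 17 had a negative log2 fold change and the median was -0.26. Timm22, the channel that inserts carriers into the inner membrane, stood at 53.5, 55.9 and 54.9 CPM in KANSL1-deficient libraries and at 76.1, 76.9 and 77.8 CPM in control libraries (log2 fold change -0.49 ± 0.13, SE; edgeR adjusted p = 0.0493). Timm50 (-0.50, adjusted p = 0.0477) and Timm17a (-0.49, adjusted p = 0.0421) belong to the TIM23 complex, which handles proteins with a presequence and not carriers. Timm22 is thus the only one of the 3 on the carrier route, and the share of 14.3% is not one of that route alone. Timm22 was at an adjusted p of 0.0508 with median-of-ratios scaling. All 3 calls lie close to the threshold. With 1 library left out, Timm22 and Timm17a passed in 0 of 6 fits and Timm50 in 1. No small TIM chaperone passed the test.

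Of 31 tested transporters of the mitochondrial membranes outside the Slc25a symbols, 1 rose (3.23%, against 3.85% of all tested genes) and 2 fell (6.45%, against 2.91%). Ucp2, a carrier-fold protein related to the uncoupling protein of brown fat, stood at 780, 1046 and 879.5 CPM in KANSL1-deficient libraries and at 586, 540.0 and 700.2 CPM in control libraries (log2 fold change 0.57 ± 0.14, SE; edgeR adjusted p = 0.0343). The call was lost with library totals, where the log2 fold change was 0.42 (adjusted p = 0.0950), and with 1 library left out it held in 1 of 6 fits. Sfxn2, a sideroflexin, fell to 16.2 ± 2.49 CPM in KANSL1-deficient libraries, against 27.7 ± 0.930 CPM in control libraries (SD, n = 3 each; edgeR adjusted p = 0.0373). Mpv17, an inner membrane protein needed to keep mitochondrial DNA, fell to 3.66 ± 0.945 CPM in KANSL1-deficient libraries, against 9.46 ± 2.05 CPM in control libraries (SD, n = 3 each; edgeR adjusted p = 0.0304). With 1 library left out, Sfxn2 passed in none of the 6 fits and Mpv17 in 2.

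Enzymes that make or use the carried compounds were a list of 49, with 42 tested, of which 1 rose and 1 fell (2.38% each). Neither share exceeds that of all tested genes, 3.85% higher and 2.91% lower. Mthfd2, a mitochondrial folate enzyme, rose to 44.5 ± 5.15 CPM in KANSL1-deficient libraries, against 14.6 ± 2.21 CPM in control libraries (SD, n = 3 each; log2 fold change 1.61 ± 0.19, SE; edgeR adjusted p = 0.00308). Slc25a32, the folate carrier, was at the other side of 0, as given above. Fech, which inserts iron into heme, fell to 31.5 ± 2.70 CPM in KANSL1-deficient libraries, against 62.0 ± 3.96 CPM in control libraries (SD, n = 3 each; -0.98 ± 0.16, SE; edgeR adjusted p = 0.00620), while the iron carriers did not pass the test. Both calls held in all 16 alternatives run for them.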

How the data were processed

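Poly(A)-selected RNA of sorted thymocytes was sequenced, with groups and replicate numbers taken from the sample labels. The submitters' processing notes name the GRCm39 build and the tools STAR, featureCounts and DESeq2, without versions. The authors deposited whole-number read counts per gene, FPKM values of the same genes, and a table of their own comparison that holds, for each gene, its mean normalized signal, the ratio of the genotypes, the log2 of this ratio, and the p-value before and after adjustment.

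The counts as deposited were tested with edgeR 4.0.16 in R 4.3.3 over all 15353 genes that passed its filter by group (minimum count 10, minimum total 15), with TMM scaling, robust quasi-likelihood fits, genotype as the only term and Benjamini-Hochberg adjustment at 0.05. The standard error is the log2 fold change divided by the square root of F, without sign. Sums and pair ratios were compared by exact permutation over 20 assignments of the libraries, and a pair needed a mean of 10 counts for each gene. FPKM imply the same gene length in all libraries. The scripts were tested on simulated data.

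Named genes were every member past the threshold or with an unadjusted p under 0.05, the 12 members with the highest mean FPKM, the genes of 9 listed pairs, and genes past the threshold in 3 other lists. Slc25a1, Slc25a31, Slc25a38, Slc25a43 and Slc25a53 were named after their values were seen. One gene that this rule names is not reported here. The members and lists were chosen with earlier results of these data known. The results were recomputed with scaling by median of ratios or by library totals, no filter, at least 5 CPM in 3 libraries, DESeq2 1.42.0, limma-voom and limma on log2 FPKM plus 1 or plus 0.1 (limma 3.58.1), a replicate block, removal of each library's abundance trend (lowess, span 0.3), and leaving out each library. The labels number the mice but name no litter or day. Each p-value measures the spread between 3 mice a genotype.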

Additional observations from a re-analysis of the deposited data

How the results depend on the processing

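Median-of-ratios scaling moved none of the counts of calls in the 4 gene lists by more than 1.5 times. The count of members called lower was 7 with library totals and with DESeq2, 6 with no filter, with at least 5 CPM in 3 libraries and with log2 FPKM plus 1 or plus 0.1, and 1 with the replicate block, against 3 in the main test. DESeq2 also called 1 member higher, and limma-voom called 4 lower and 0 higher. The background moved too: of 15353 tested genes, 447 were lower in the main test, 959 with library totals and 509 with limma-voom. With log2 FPKM plus 1 and plus 0.1 these were 614 and 591, and with the replicate block 164. No filter gave 845 of 29626 lower, at least 5 CPM in 3 libraries 740 of 9834, and DESeq2 942 of 14118. Over the same genes, 591 were higher in the main test, 367 with library totals and 717 with limma-voom. With log2 FPKM plus 1 and plus 0.1, 283 and 273 were higher, and with the replicate block 242. No filter gave 884 higher, at least 5 CPM in 3 libraries 806, and DESeq2 1067. With the abundance trend removed, 434 were higher and 361 lower. The import list had 5 genes lower with library totals, at least 5 CPM in 3 libraries or DESeq2, and 0 with the replicate block. Other transporters had 0 higher with library totals, either FPKM scale, the replicate block or the abundance trend removed, and 2 higher with DESeq2. They had 5 lower with library totals or DESeq2, 4 with no filter, 1 with the abundance trend removed and 0 with the replicate block. Enzymes had 2 higher with no filter or at least 5 CPM in 3 libraries and 3 higher with DESeq2 or limma-voom, and had 3 lower with library totals, no filter, at least 5 CPM in 3 libraries, DESeq2 or either FPKM scale and 2 lower with the abundance trend removed. The median log2 fold change of members was -0.29 with library totals, -0.20 and -0.26 with log2 FPKM plus 1 and plus 0.1, and -0.10 with the abundance trend removed.

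Among the members named by the rule above, signs turned only in those close to 0, none of which was called. Other members are not listed here and turned as well. Of the 39 tested, 32 had a negative log2 fold change with library totals, against 25 in the main test. With library totals the log2 fold changes were -0.10 for Slc25a4, -0.13 for Slc25a5, -0.030 for Slc25a3, -0.044 for Slc25a36, -0.041 for Slc25a28 and -0.091 for Slc25a25. With log2 FPKM plus 1 they were -0.10 for Slc25a4, -0.11 for Slc25a5, -0.030 for Slc25a3, -0.045 for Slc25a36, -0.0062 for Slc25a28 and -0.070 for Slc25a25, and with plus 0.1 they were -0.10 for Slc25a4, -0.11 for Slc25a5, -0.030 for Slc25a3, -0.047 for Slc25a36 and -0.085 for Slc25a25. With the abundance trend removed they were -0.036 for Slc25a4, -0.20 for Slc25a5, -0.092 for Slc25a3 and -0.082 for Slc25a36. Slc25a11 was at 0.0012 with limma-voom and 0.0029 with the replicate block. The cause was not tested.

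With each library left out in turn, 0 to 4 members were called lower, 0 to 2 import genes lower, 0 to 1 other transporters higher and 0 to 2 lower, and 1 to 2 enzymes in each direction. Over all tested genes, 86 to 381 were called lower and 169 to 447 higher in these fits, of 16016 to 16236 tested. No member passed without KANSL1-deficient replicate 1, and Slc25a16 alone passed without KANSL1-deficient replicate 2 or control replicate 2. The members' median was between -0.17 and -0.054. Log2 fold changes lay between -0.032 and 0.12 for Slc25a4, -0.13 and 0.15 for Slc25a5, -0.10 and 0.061 for Slc25a11, -0.34 and 0.00079 for Slc25a17, -0.12 and 0.069 for Slc25a46, -0.020 and 0.14 for Slc25a25, and -0.11 and 0.33 for Slc25a28. The difference in log2 ratio lay between -0.095 and 0.14 for Slc25a5 with Slc25a4 and between -0.20 and 0.71 for Slc25a22 with Slc25a18.

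Libraries with equal replicate numbers had correlations of -0.049, -0.024 and -0.095 between their deviations from the genotype means. With 3 libraries a genotype these values cannot decide if mice with equal numbers share a litter or day. The replicate block called 242 genes higher and 164 lower, against 591 and 447 without it. The 8 members with few counts did not pass the filter, and without it 0 of them had an unadjusted p under 0.05 with edgeR or DESeq2.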
